A study of Mus musculus with 2 samples.

Results

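The regions described here are the neighbourhoods of the 4 mouse Hox clusters, read bin by bin in 1 ChIP-seq library for JARID2 and 1 for MTF2. They were taken as 4 fixed windows in the coordinates of the deposited reads, counted from 1. The Hoxa window ran from 52080001 to 52230000 on chromosome 6, the Hoxb window from 95980001 to 96190000 on chromosome 11, the Hoxc window from 102700001 to 102880000 on chromosome 15 and the Hoxd window from 74410001 to 74580000 on chromosome 2. Cut into 1 kb bins they gave 150, 210, 180 and 170 members, or 710 of the 2537554 bins with a read on chromosomes 1 to 19 and X (0.0280%). The windows had been placed where both libraries were already known to be raised over long stretches, so the levels below describe them and test nothing. Both libraries came from embryonic stem (ES) cells of a 129SvJae x C57BL/6 background at passages 10 to 15, which had been grown without feeder cells for 2 to 3 passages before chromatin was taken. By the labels the groups differ in the antibody, against MTF2 or against Jarid2, and no replicate, input or control antibody was used here.

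Hox genes encode homeodomain transcription factors that specify position along the body axis, and mammals carry them in 4 compact clusters. In undifferentiated ES cells these clusters are a textbook target of Polycomb repressive complex 2 (PRC2), which methylates lysine 27 of histone H3. JARID2, a Jumonji-family protein that has lost demethylase activity, and MTF2, a Polycomb-like protein, are accessory partners of PRC2, and both are known for contacts with DNA and for occupancy of CpG-rich promoters.

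The names of the windows came with their choice and could be checked by chromosome alone. In the RefSeq gene table at hand, of assembly GRCm38.p6, the clusters lie on these same chromosomes and hold 11 Hoxa, 10 Hoxb, 9 Hoxc and 9 Hoxd genes. The build of the reads is not given in the sources used here, so the coordinates of that table were not used and no bin was placed on a gene, exon or intron.

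Promoters of the cluster genes are shown to make the base composition of such regions visible. The RefSeq promoter table, of GRCm38.p6, matched 22 of the 39 Hox genes with 24 promoters, each running from 250 bases before to 50 after the gene's start. Below is the matched promoter with the most CG dinucleotides in each cluster, 5′ to 3′ along the gene, with every CG in capitals; Hoxa13 lies on the minus strand of its chromosome and the others on the plus strand.
Hoxa13: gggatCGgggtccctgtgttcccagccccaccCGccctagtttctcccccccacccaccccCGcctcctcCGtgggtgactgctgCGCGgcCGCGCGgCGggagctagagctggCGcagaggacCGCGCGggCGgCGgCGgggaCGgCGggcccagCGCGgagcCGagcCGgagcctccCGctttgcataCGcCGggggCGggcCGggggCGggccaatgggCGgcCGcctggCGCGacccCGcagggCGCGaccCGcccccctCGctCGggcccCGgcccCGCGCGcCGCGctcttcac
Hoxb4: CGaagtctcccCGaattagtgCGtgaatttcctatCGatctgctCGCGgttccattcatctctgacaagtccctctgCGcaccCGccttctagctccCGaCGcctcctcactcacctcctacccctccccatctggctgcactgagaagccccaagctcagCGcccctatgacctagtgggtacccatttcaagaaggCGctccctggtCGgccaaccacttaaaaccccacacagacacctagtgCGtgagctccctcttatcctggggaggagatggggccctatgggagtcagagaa
Hoxc4: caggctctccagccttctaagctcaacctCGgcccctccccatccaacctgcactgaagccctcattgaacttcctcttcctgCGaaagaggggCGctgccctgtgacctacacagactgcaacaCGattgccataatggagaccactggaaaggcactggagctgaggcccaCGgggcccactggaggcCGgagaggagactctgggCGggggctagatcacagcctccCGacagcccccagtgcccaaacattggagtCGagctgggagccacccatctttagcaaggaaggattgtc
Hoxd13: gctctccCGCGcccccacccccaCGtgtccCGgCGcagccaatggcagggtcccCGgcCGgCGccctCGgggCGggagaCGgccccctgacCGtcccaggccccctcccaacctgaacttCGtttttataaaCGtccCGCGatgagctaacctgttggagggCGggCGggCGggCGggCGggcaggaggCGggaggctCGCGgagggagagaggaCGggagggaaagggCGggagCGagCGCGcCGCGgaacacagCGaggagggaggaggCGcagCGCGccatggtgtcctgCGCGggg
These promoters held 45 (Hoxa13), 14 (Hoxb4), 9 (Hoxc4) and 37 (Hoxd13) CG dinucleotides. Over the 24 Hox promoters the median was 14.5, with a lowest count of 4, and 70.8% held at least 10. Over all 32851 promoters of the table the median was 7 and 43.5% held at least 10. CG reads the same on both strands, and only 1 Hoxc and 3 Hoxb genes were matched. The read counts below could not be set against these sequences.

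The MTF2 library held 8946204 distinct reads of 52 bp and the JARID2 library 12900993 of 36 bp. A fold is the count of a bin divided by the expected count of its chromosome, the mean over bins up to the 99th percentile. The expected counts on the 4 chromosomes ran from 3.18 to 3.50 reads per bin for MTF2 and from 3.84 to 5.24 for JARID2. Intervals are exact 95% Poisson intervals for folds and exact Clopper-Pearson intervals for ratios, and cover counting error only. In the windows each kept read stood for 1.06 to 1.07 deposited MTF2 reads and 1.21 to 1.25 JARID2 reads, against 1.23 and 1.12 over the whole libraries. The forward strand held 49.5% to 50.7% of the MTF2 reads and 50.2% to 50.4% of the JARID2 reads of a window.

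JARID2 was at least 5-fold in 409 of the 710 bins (57.6%) and MTF2 in 237 (33.4%). Over all bins of the series those shares were 1.89% and 0.199%. Since the windows were chosen on these levels, the comparison with the background is a description. Both libraries passed 5-fold in 225 bins (31.7%, against 0.137% of all bins), which is 55.0% of the JARID2 bins and 94.9% of the MTF2 bins. Over all bins of the series, 7.23% of the JARID2 bins also passed 5-fold in MTF2, and 3469 of the 5056 MTF2 bins in JARID2. The median bin stood at 6.83-fold in JARID2 and 3.17-fold in MTF2, beside 0.798 and 0.890 over all bins. JARID2 reached 20-fold in 205 bins (0.342% of all bins of the series did) and 100-fold in 22 (0.0279%), while MTF2 reached 10-fold in 63 (0.0428%). Together the windows took 0.470% of the kept JARID2 reads and 0.114% of the kept MTF2 reads. The lower bound of the interval lay above 5-fold in 347 JARID2 bins and in 115 MTF2 bins, so the MTF2 calls are the less certain ones at this depth.

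**Figure D1:**
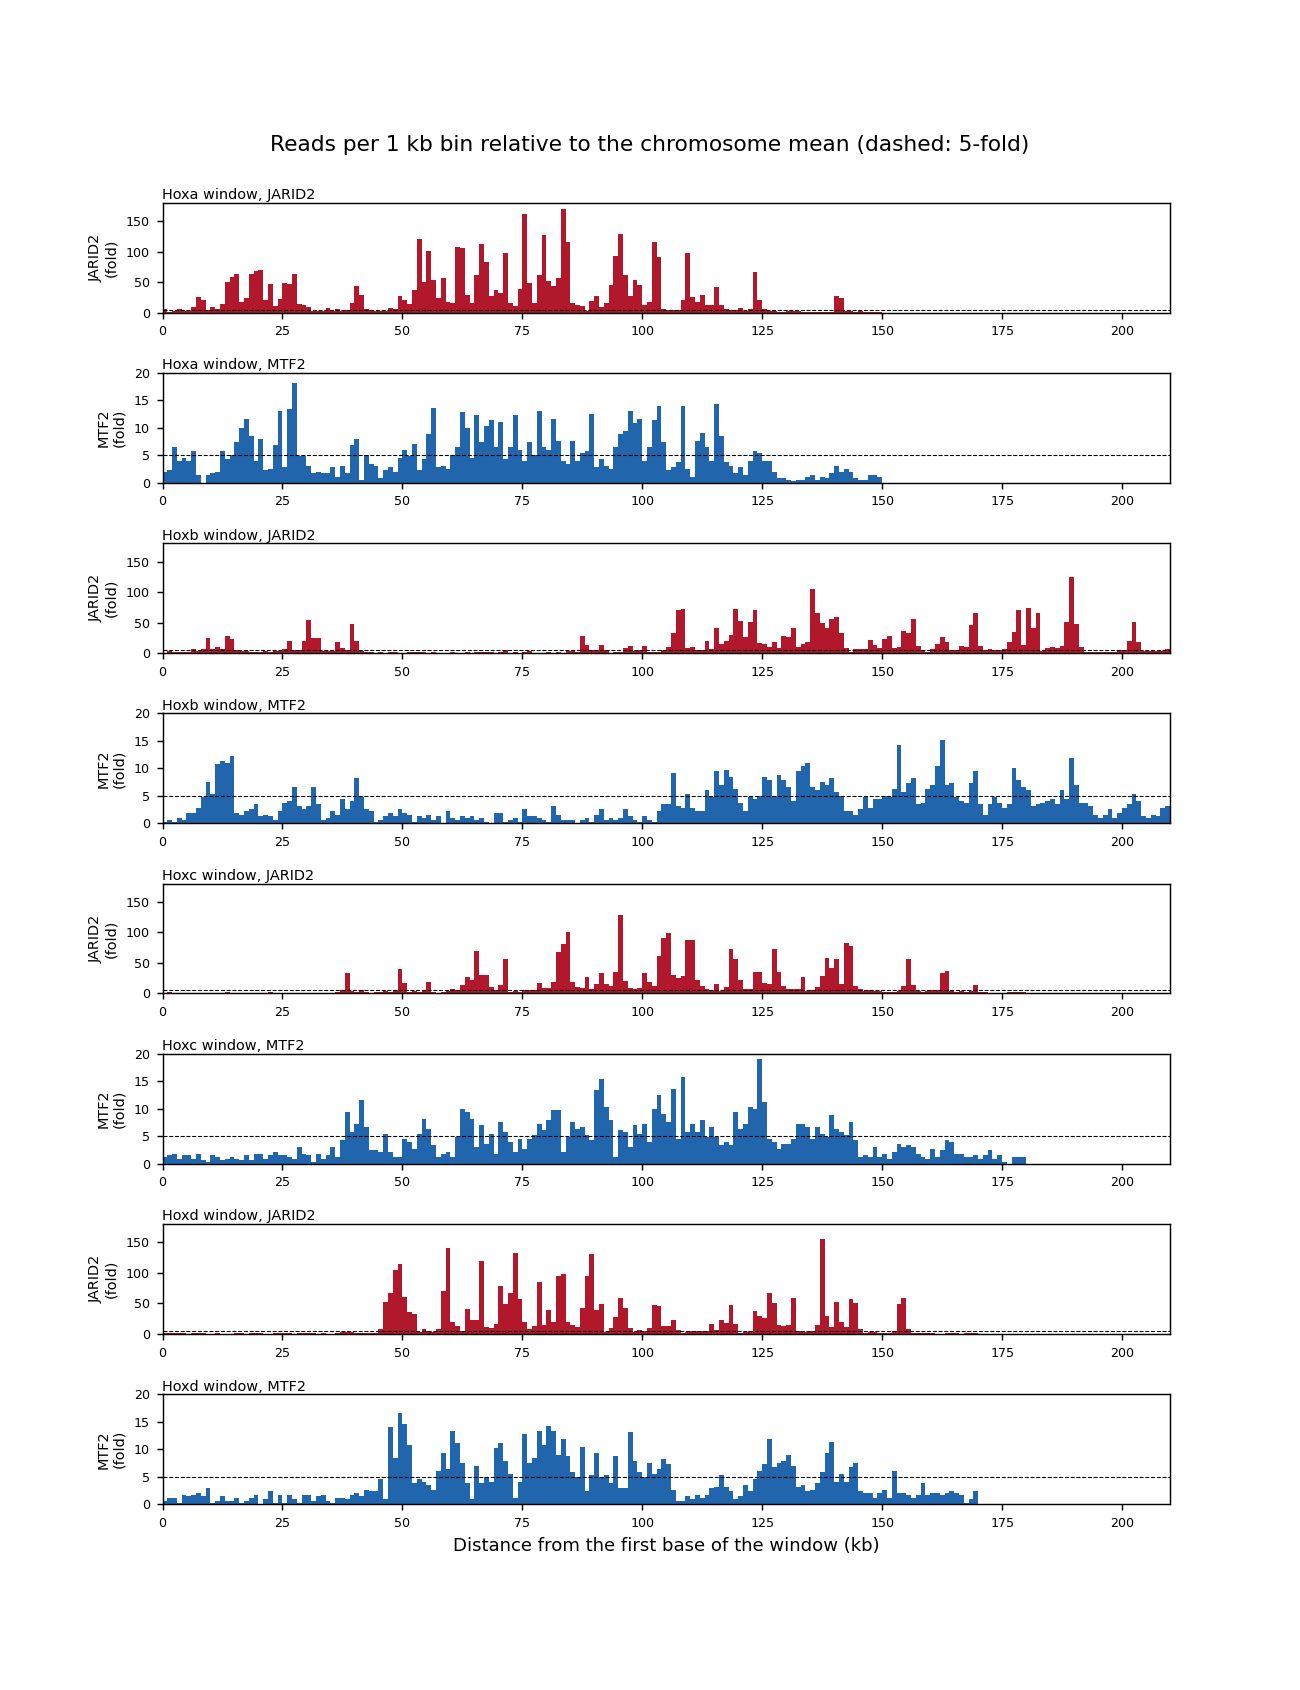
Fold of JARID2 (red) and MTF2 (blue) in each 1 kb bin of the 4 windows, plotted against the distance from the window's first base in kb. JARID2 peaks reach 169.9-fold and fall back between peaks, in places to single digits. MTF2 stays below 20-fold and changes less from bin to bin.

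Over the windows as cut, Hoxa had the largest share of bins at 5-fold in each library. That share depends on how much low flank a window takes in. Edge stretches under 5-fold in both libraries were 8 bins long in Hoxa, 37 and 10 in Hoxc and 45 and 14 in Hoxd. In the longest blocks of Hoxa and Hoxd, MTF2 averaged 7.13 and 7.19-fold and JARID2 51.5 and 39.5-fold. Of the 150 bins of the Hoxa window, 106 reached 5-fold in JARID2, 62 in MTF2 and 60 in both. Its mean fold was 29.6 (29.2 to 30.1) for JARID2 and 5.16 (4.96 to 5.35) for MTF2. Its longest block, where bins of at least 5-fold JARID2 at most 1 kb apart are joined, spanned 58 kb from 52127001 to 52185000 and ranged from 2.86 to 169.9-fold JARID2 around a median bin of 38.2. MTF2 in the same 58 bins ran from 2.00 to 13.98-fold with a median of 6.56, and 38 of them passed 5-fold.

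The highest Hoxa bin for JARID2, from 52163001, held 653 reads, or 169.9-fold (157 to 183), beside 14 MTF2 reads, or 3.99-fold (2.18 to 6.70). The bin from 52155001 had the same 14 MTF2 reads under 620 JARID2 reads (161-fold). The next in JARID2 lay at 52175001, 52159001 and 52133001, with 129, 127 and 121-fold JARID2 and 8.85, 6.56 and 2.28-fold MTF2. The highest MTF2 bins lay elsewhere. MTF2 was 18.3-fold (14.1 to 23.3) in the bin from 52107001, outside the longest block, where JARID2 was 62.7-fold. It was 14.3-fold at 52195001, 13.98-fold at both 52183001 and 52188001, and 13.7-fold at 52136001, with JARID2 between 21.3 and 90.8-fold there.

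A second Hoxa block of 25 kb, from 52086001 to 52111000, averaged 31.9-fold JARID2 (30.8 to 33.1) and 5.97-fold MTF2 (5.47 to 6.50). Its bin from 52088001 had 82 JARID2 reads, or 21.3-fold, and no MTF2 read, which allows up to 1.05-fold. Beyond the longest block followed stretches of 10 kb from 52188001 (JARID2 27.6-fold, MTF2 7.16-fold) and 6 kb from 52200001 (18.3 and 3.90-fold). A short peak of 2 kb from 52220001 had 25.5-fold JARID2 and 2.57-fold MTF2. Between these last 2 lay 14 bins from 52206001 with neither library at 5-fold, where the medians were 1.56 for JARID2 and 0.856 for MTF2.

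In the Hoxb window the occupied bins fell into separate groups with a long low stretch between them. JARID2 passed 5-fold in 116 of 210 bins, MTF2 in 56 and both in 55, and the mean folds were 14.8 (14.6 to 15.0) and 3.68 (3.54 to 3.83). From 96021001 to 96051000, 30 bins stayed under 5-fold in both libraries, with medians of 0.955 (JARID2) and 1.26 (MTF2). After 1 bin of 5.16-fold JARID2, another 15 such bins followed from 96052001, with medians of 1.15 and 0.630. Before the low stretch lay blocks of 9 kb from 95986001, 8 kb from 96005001 and 5 kb from 96016001. The first of them had the lowest ratio of JARID2 to MTF2 fold among blocks of at least 5 kb in any window, 1.72 (1.47 to 2.02), with JARID2 at 12.9-fold and MTF2 at 7.52-fold.

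After the low stretch JARID2 formed blocks of 53 kb from 96085001 and 32 kb from 96140001, with MTF2 called in 31 and 14 of their bins. The highest JARID2 bin of the window, from 96169001, stood at 124-fold (115 to 134). With 11.97-fold MTF2 (8.47 to 16.4) it was the one bin, in all 4 windows, that ranked among the 5 highest of its window in both libraries. JARID2 was 106-fold at 96115001, 74.3 at 96160001, 72.2 at 96088001 and 71.6 at 96099001, with MTF2 between 2.83 and 6.61-fold. The highest MTF2 bins were those from 96142001 (15.1-fold, JARID2 26.5), 96133001 (14.2-fold, JARID2 9.74), 95994001 (12.3-fold, JARID2 23.1) and 95992001 (11.3-fold, JARID2 7.26), beside 96169001. Blocks of 5 kb from 96067001 and 96076001, at the inner edge of the low stretch, had JARID2 at 13.02 and 8.25-fold and MTF2 at 1.20-fold (0.720 to 1.87) in each. The window cut through the last block, which went on to 96192000.

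The Hoxc window held the highest MTF2 bin and, with called bins up to 1 kb apart joined, the longest JARID2 block of the 4. With only adjacent bins joined its longest block was 41 kb, as in Hoxa, and at a 10-fold threshold it was 13 kb, the shortest of the 4. JARID2 passed 5-fold in 98 of 180 bins, MTF2 in 63 and both in 57, with mean folds of 16.3 (16.0 to 16.6) and 4.31 (4.14 to 4.48). The first 37 bins, up to 102737000, were under 5-fold in both, with medians of 0.969 for JARID2 and 1.52 for MTF2. In the 73 kb block from 102775001 to 102848000 JARID2 ran from 3.39 to 128-fold around a median of 17.7, and MTF2 from 1.21 to 19.1-fold around 6.07. Of its bins 70 were called in JARID2 and 47 in MTF2.

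JARID2 in the Hoxc window was highest in the bin from 102795001, at 128-fold (118 to 140) with 6.07-fold MTF2. The next were 102784001 (101-fold), 102805001 (98.4), 102804001 (90.6) and 102810001 (87.9), where MTF2 was 4.86, 7.59, 9.11 and 7.29-fold. MTF2 peaked at 19.1-fold (14.7 to 24.5) from 102824001, over 34.9-fold JARID2. It was 15.8-fold at 102808001, 15.5 at 102791001, 13.7 at 102806001 and 13.4 at 102790001, where JARID2 was between 16.2 and 34.2-fold. Before the block lay a called JARID2 bin in which MTF2 was the higher of the libraries. The bin from 102741001 held 38 MTF2 reads, or 11.5-fold (8.17 to 15.8), and 24 JARID2 reads, or 5.81-fold (3.73 to 8.65). The ratio there was 0.504 (0.289 to 0.862). On the other side, blocks of 3 kb from 102854001 and 4 kb from 102860001 had JARID2 at 27.4 and 19.9-fold and no bin with MTF2 at 5-fold.

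The Hoxd window had a sharp outer edge. Its first 45 bins stayed under 5-fold in both libraries, with medians of 0.941 for JARID2 and 1.16 for MTF2. JARID2 then went from 2.12-fold in the bin before the block to 7.30, 52.2, 66.8, 105 and 115-fold in its first 5 bins from 74455001. MTF2 in those bins was 4.65, 0.872, 13.96, 8.43 and 16.6-fold, the last being its highest value in the window. Over the 170 bins JARID2 passed 5-fold in 89, MTF2 in 56 and both in 53, and the mean folds were 21.1 (20.7 to 21.4) and 4.29 (4.13 to 4.47).

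The highest JARID2 bin of the Hoxd window lay outside its longest block, from 74547001, at 156-fold (144 to 168) with 5.82-fold MTF2. Inside the 63 kb block, which ended at 74518000, the bins from 74469001, 74483001, 74499001 and 74476001 reached 141, 132, 130.1 and 119-fold, and MTF2 was 6.40, 1.16, 5.23 and 3.78-fold there. Besides 74459001, the highest MTF2 bins were 74460001 (14.5-fold), 74490001 (14.3), 74457001 (13.96) and 74470001 (13.4), with JARID2 from 20.004 to 66.8-fold. Blocks of 6, 11 and 11 kb followed from 74524001, 74532001 and 74545001, with JARID2 at 21.2, 29.0 and 37.8-fold and MTF2 at 2.96, 6.69 and 5.74-fold. The last block, 3 kb from 74563001, had 38.7-fold JARID2 (35.3 to 42.2) and 1.94-fold MTF2 (1.18 to 2.99). Its ratio of 19.9 (12.8 to 32.9) was the highest of any block in the 4 windows.

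At the start of the longest blocks the first bins inside were 8.07-fold JARID2 (Hoxa), 10.7 (Hoxb), 6.30 (Hoxc) and 7.30 (Hoxd), and the bins just before them 2.34, 4.201, 2.18 and 2.12-fold. The last bins inside were 5.20, 12.03, 5.81 and 6.12-fold, and the bins just after them 3.64, 4.39, 4.36 and 2.12-fold. MTF2 was under 5-fold in each of these 16 bins but the last one inside the Hoxa block, where it was 7.42-fold.

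Just outside the windows some JARID2 bins were still raised, and those after the Hoxb window continued the block cut by its end. In the 10 bins before each window no bin reached 5-fold in either library. In the 10 bins after it JARID2 did so in 3 bins for Hoxa, 2 for Hoxb, 4 for Hoxc and 0 for Hoxd, and MTF2 in none. The highest of these JARID2 bins were 38.0-fold after the Hoxa window and 29.3-fold after the Hoxc window. The nearest bins outside and inside the end of the Hoxb window were 7.45 and 6.11-fold in JARID2, and at the start of the Hoxa window the bin outside was 2.60-fold and the first one inside 5.20-fold. The other edges had JARID2 under 3-fold on both sides.

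The ratio of JARID2 to MTF2 fold over a whole window was 5.74 (5.51 to 5.98) for Hoxa, 4.91 (4.71 to 5.12) for Hoxd, 4.02 (3.86 to 4.201) for Hoxb and 3.78 (3.62 to 3.95) for Hoxc. The intervals of Hoxb and Hoxc overlap, and those of the others do not. With the chromosome median in place of the mean those of Hoxa (6.05 to 6.56) and Hoxd (5.82 to 6.33) overlap as well. The order rests on the expected counts of the chromosomes: before division by them there were 6.64 JARID2 reads per MTF2 read in Hoxb, 6.30 in Hoxa, 6.07 in Hoxd and 4.74 in Hoxc. A higher ratio here means more JARID2 relative to its own library's background, and the antibodies may differ in efficiency, which was not tested.

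JARID2 was the more uneven of the libraries. In the longest block of each window the ratio of the 90th to the 10th percentile bin was 9.24 (Hoxb) to 17.6 (Hoxd) for JARID2 and 3.33 (Hoxc) to 4.98 (Hoxd) for MTF2. The coefficient of variation of JARID2 was 0.815 to 0.992, where Poisson counting alone gives 0.0711 to 0.0901. For MTF2 it was 0.466 to 0.542, where counting alone gives 0.200 to 0.233. Both libraries thus varied from bin to bin by more than counting error. The highest 10% of the bins of a window held 39.3% to 48.0% of its JARID2 reads and 25.9% to 29.4% of its MTF2 reads.

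Over a whole window the levels went together, and within a block they did so weakly. Spearman's rho of JARID2 and MTF2 fold was 0.643 (Hoxa, 150 bins), 0.740 (Hoxb, 210), 0.704 (Hoxc, 180) and 0.700 (Hoxd, 170). Within the longest blocks it was 0.236, 0.249, 0.273 and 0.179 over 58, 53, 73 and 63 bins. Neighbouring bins are not independent, all bins of a library share its depth, and the base composition of a bin is the same for both libraries. Mappability may act on both as well, though it can differ between reads of 52 bp (MTF2) and 36 bp (JARID2), and was not tested.

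**Figure D2:**
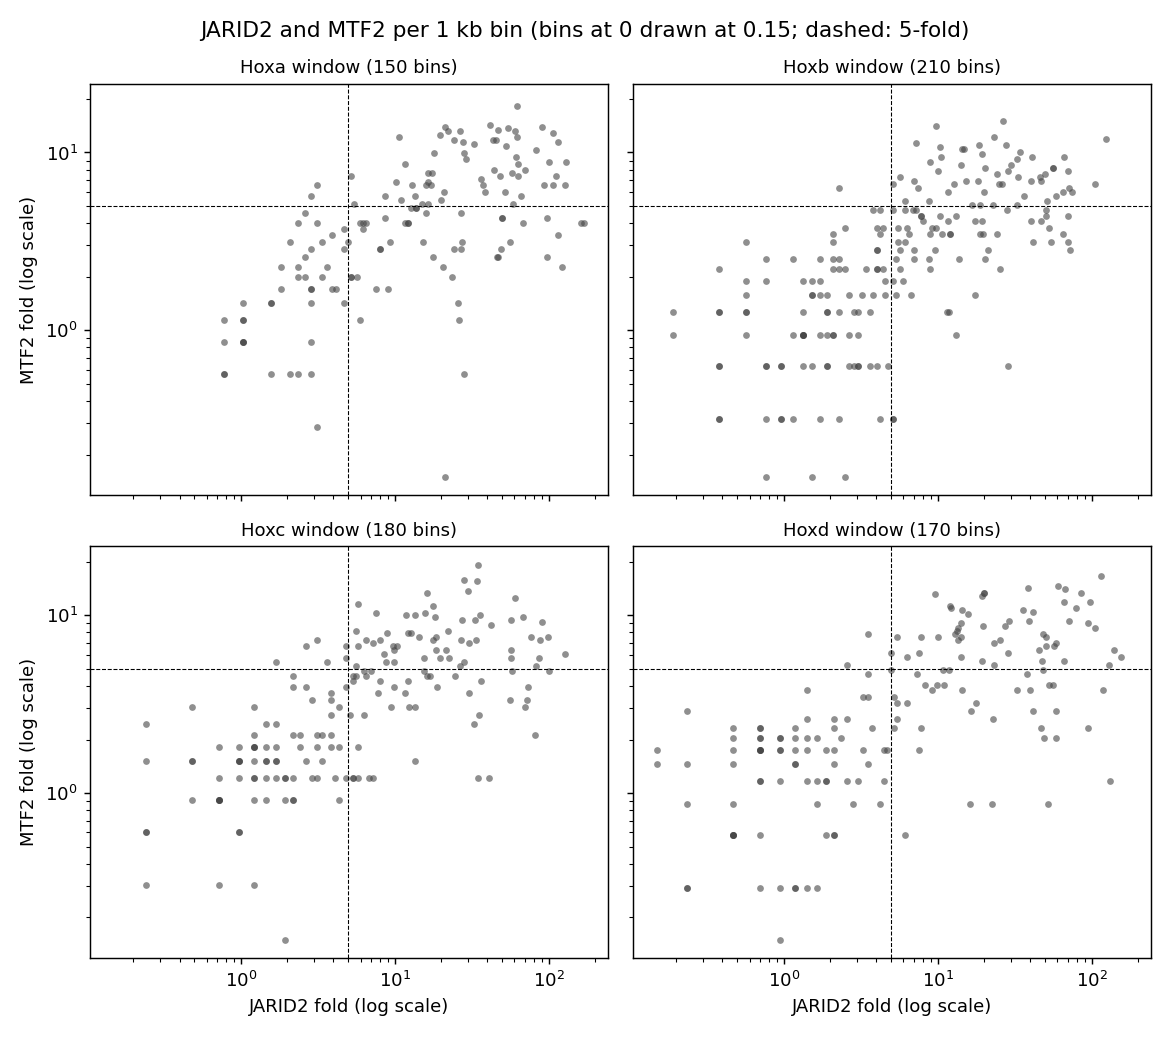
Each point is a 1 kb bin, with its JARID2 fold on the horizontal and its MTF2 fold on the vertical log axis, and dashed lines at 5-fold. The lower right corner is thinly filled, with 5 bins of at least 20-fold JARID2 and at most 1-fold MTF2.

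In the windows MTF2 was higher where JARID2 was higher, up to a level that the pooled medians did not pass further on. The 84 bins of 1 to 2-fold JARID2 had a median MTF2 fold of 1.26. The median was 2.08 in the 130 bins of 2 to 5-fold JARID2, 3.97 in the 104 of 5 to 10-fold and 5.90 in the 100 of 10 to 20-fold. Beyond that it stayed near one level, with 6.59 in the 110 bins of 20 to 50-fold, 6.38 in the 73 of 50 to 100-fold and 6.48 in the 22 above 100-fold. The medians of single windows at 10 to 20-fold JARID2 ran from 4.72 (Hoxb, 30 bins) to 7.56 (Hoxd, 22 bins). Single windows did not all follow the pooled medians. Over the 4 classes from 10-fold upwards the medians were 5.56, 5.99, 7.85 and 6.56 in Hoxa, and 4.72, 6.93, 5.35 and 9.29 in Hoxb, the last over 2 bins.

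Bins at the same JARID2 level outside the windows had less MTF2. The windows had been placed where MTF2 was known to be raised too, so this comparison describes them and tests nothing. Over all other bins the medians of these 5 upper classes were 0.592, 0.590, 1.54, 2.85 and 4.11, from the lowest class to the highest. MTF2 passed 5-fold in 60 of the 100 window bins with JARID2 at 10 to 20-fold, and in 708 of the 11510 other bins of that class (6.15%). Other wide blocks were nearer to the windows. In the 42 other JARID2 blocks of at least 20 kb, the medians from 5-fold upwards were 3.22, 5.34, 5.14, 6.92 and 4.004 in the same order of classes. Their quartiles overlapped those of the windows in each class, but the window values cover all window bins, also those outside wide blocks. In the wide blocks of the windows alone the medians were higher than in the other wide blocks, at 4.56, 6.56, 6.93, 7.29 and 6.56. The quartiles overlapped there too, and no difference was tested.

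**Figure D3:**
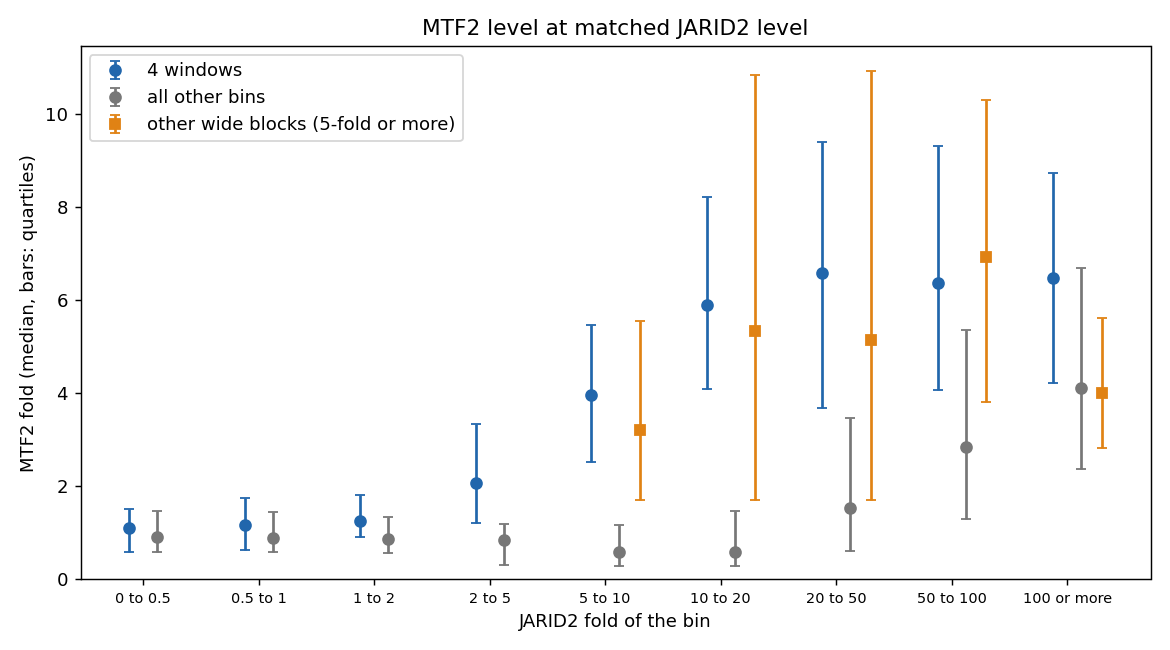
Median MTF2 fold (bars: quartiles) of 1 kb bins grouped by JARID2 fold, for the 4 windows (blue), all other bins (grey) and the other JARID2 blocks of at least 20 kb (orange, 5-fold or more). Blue lies above grey in each class, with medians of 5.90 and 0.590 at 10 to 20-fold, while blue and orange bars overlap.

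In the windows, 184 bins had JARID2 at 5-fold or more and MTF2 below it. Their median MTF2 fold was 3.20, above the 0.890 of all bins. The interval of MTF2 lay wholly below 5-fold in 61 of them, and in the rest a 5-fold level could not be told from a lower one at this depth. JARID2 of at least 20-fold with MTF2 of at most 1-fold occurred in 5 of the 710 bins (0.704%), where the share over all bins of the series was 0.1%. Among bins of at least 20-fold JARID2 the order was the opposite, with 5 of 205 in the windows and 2538 of 8686 in the series. The 5 bins were those from 52088001 and 52121001 (Hoxa), 96067001 (Hoxb), and 74456001 and 74474001 (Hoxd). The Hoxd bin from 74456001 held 222 JARID2 reads, or 52.2-fold (45.6 to 59.6), and 3 MTF2 reads, or 0.872-fold (0.180 to 2.55). That from 52121001 held 109 and 2 reads (28.4 and 0.571-fold) and that from 96067001 150 and 2 reads (28.6 and 0.630-fold).

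MTF2 at 5-fold without JARID2 at 5-fold was found in 12 of the 710 bins (1.69%, where the share over all bins of the series was 0.0625%), 2 in the Hoxa, 1 in the Hoxb, 6 in the Hoxc and 3 in the Hoxd window. Among bins called in MTF2 their share was the smaller in the windows, with 12 of 237 beside 1587 of 5056 in the series. Of the 12 window bins, 11 adjoined a bin called in JARID2, and in 4 the interval of JARID2 lay wholly below 5-fold. The interval of MTF2 lay wholly above 5-fold in 1, the Hoxd bin from 74508001, where that of JARID2 reached 5-fold, so in none of the 12 were both sides of the rule clear of counting error. This bin had the highest MTF2 among the 12, at 7.85-fold (5.17 to 11.4) with JARID2 at 3.53-fold (1.98 to 5.82). In the Hoxc window the bins from 102740001 and 102742001 had 7.29 and 6.68-fold MTF2 and 3.15 and 2.67-fold JARID2. The bin from 102753001, with 5.47-fold MTF2 (3.24 to 8.64), had 1.70-fold JARID2 (0.682 to 3.49). The 4 bins with the interval of JARID2 wholly below 5-fold were those from 96139001, 102742001, 102753001 and 74502001. In the other 8 it reached 5-fold.

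MTF2 was lower in bins farther from those called in JARID2. In bins under 5-fold JARID2 that touched a called bin the median MTF2 fold was 2.33 (84 bins), and it was 1.66 at 2 kb (42 bins), 1.34 at 3 to 5 kb (56), 1.21 at 6 to 10 kb (43), 1.36 at 11 to 20 kb (34 bins in 3 windows) and 1.16 at 21 kb or more (42 bins in 2 windows). The JARID2 median went from 3.39 to 0.941 over the same classes. The windows differed in the bins that touched a called bin, with medians from 1.89 to 3.34. With about 3 MTF2 reads expected per bin, these medians move in coarse steps.

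JARID2 summits stood close together and were narrow. A summit was a 200 bp step of at least 20-fold that exceeded all steps within 1 kb on each side. There were 34 in the Hoxa, 37 in the Hoxb, 34 in the Hoxc and 28 in the Hoxd window, with a median spacing of 3000 bp in Hoxa and Hoxd, 3200 bp in Hoxb and 3400 bp in Hoxc. The rule sets a lower limit on the spacing, and the shortest found was 1200 bp in each window. The median width at 50% of the height was 500 to 600 bp. The median summit was 126-fold in Hoxa, 125-fold in Hoxd, 78.1 in Hoxc and 76.4 in Hoxb, and the highest steps reached 246, 235, 230.2 and 195-fold in that order.

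MTF2 was lower at the JARID2 summits than beside them. Over the 133 summits, MTF2 was 4.77-fold (4.32 to 5.24) in the summit step, 6.22 and 6.52-fold 200 bp to the left and right, and 6.91 and 7.82-fold at 400 bp. JARID2 stood at 105-fold in the summit step, at 64.8 and 63.9 beside it and at 37.1 and 37.0 at 400 bp. The MTF2 fold at the summit divided by that at 400 to 1000 bp was 0.687 (0.621 to 0.759). It was 0.734 (0.608 to 0.880) in Hoxa, 0.721 (0.583 to 0.885) in Hoxb, 0.663 (0.538 to 0.808) in Hoxc and 0.625 (0.498 to 0.776) in Hoxd, so each window had a lower level at the summit, with overlapping intervals. The summit was chosen on JARID2 reads, and base composition, mappability of 52 bp and 36 bp reads and fragment size at these steps were not tested.

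In the other wide blocks the same ratio was 0.916 (0.872 to 0.961) over 414 summits, and 27 of the 42 blocks had a ratio under 1. At the main setting that interval does not overlap the one of the 4 windows. With MTF2 reads of score above 0 the interval of the 4 windows overlaps it, and the other blocks were not recomputed under other settings. The 414 summits pool blocks of 20 to 148 kb, while the 133 summits of the windows include some outside wide blocks. JARID2 at the 414 went from 115-fold in the summit step to 54.0 and 60.4-fold at 400 bp, a smaller fall than in the windows. The intervals cover counting error only, summits of 1 block are not independent, and the difference was not tested. Steps where MTF2 itself peaked at 10-fold or more numbered 133 as well, 27, 35, 36 and 35 by window. JARID2 averaged 29.0-fold at those steps, 37.0 and 31.4-fold 200 bp away, and between 28.2 and 41.2-fold over 2000 bp to each side.

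**Figure D4:**
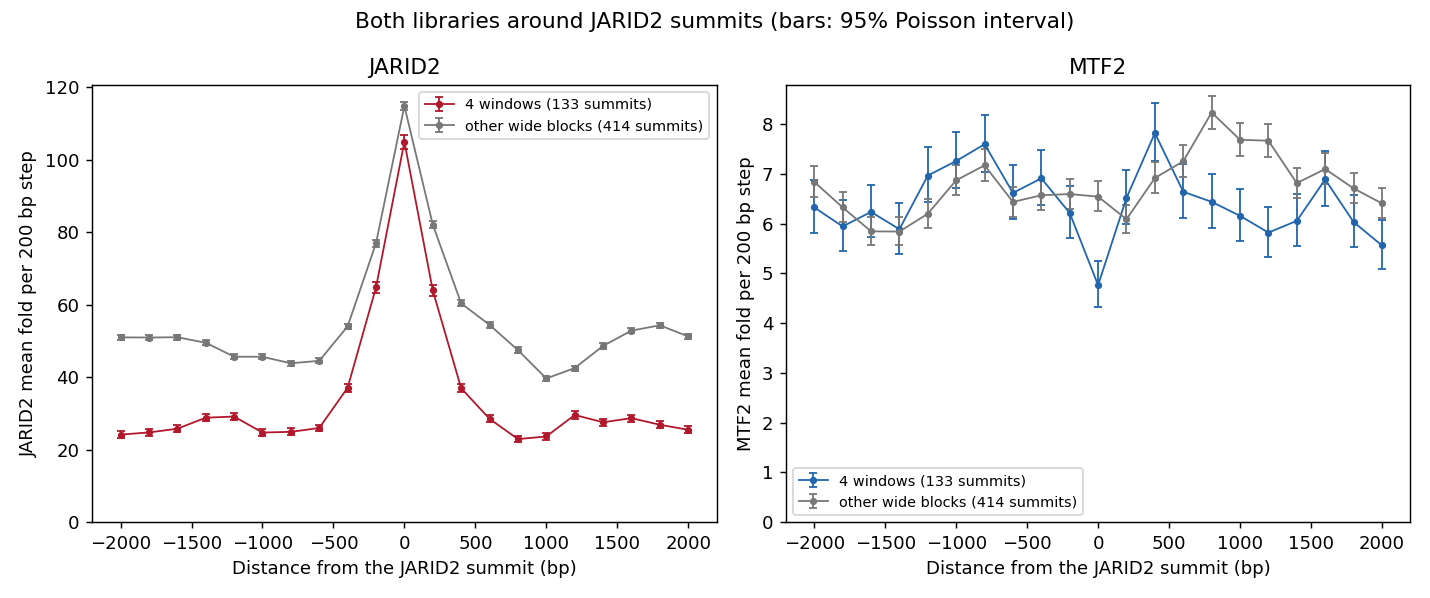
Mean fold per 200 bp step (bars: 95% Poisson interval) against the distance in bp from JARID2 summits, for JARID2 (left) and MTF2 (right), in the 4 windows (133 summits) and the other wide blocks (grey, 414 summits). In the windows JARID2 peaks at 105-fold where MTF2 has its lowest step, 4.77-fold, and in the other blocks MTF2 is 6.54-fold at the summit.

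The single highest steps of the factors did not coincide within the longest block of any window, but their distances rest on small differences in height. In the Hoxa block the highest JARID2 step, from 52155401, had 189 JARID2 and 4 MTF2 reads, and the highest MTF2 step, 19000 bp away from 52136401, had 19 MTF2 and 14 JARID2 reads. The distance was 14200 bp in Hoxc, 34000 bp in Hoxb and 40000 bp in Hoxd. In Hoxd 200 JARID2 reads and 1 MTF2 read fell in the step from 74499001, and 26 MTF2 and 34 JARID2 reads in that from 74459001. Yet a Hoxd JARID2 summit of 172 reads, from 74459801, lay close to that MTF2 step. In Hoxb the highest MTF2 step held 15 reads, and the steps from 96098001 and 96113201 held 14 each. The highest JARID2 step of Hoxb, from 96099201, was also an MTF2 summit, with 8 reads. For Hoxb the distance was 13900 bp with 100 bp steps, where the highest MTF2 step held 9 reads.

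The windows held 6 of the JARID2 blocks of at least 20 kb, of 25 to 73 kb, and their longest blocks ranked 4 to 7 by width among all such blocks of the series. The 42 others with under 3 deposited reads per kept read had a median width of 22 kb (20 to 148). JARID2 averaged 26.3 to 51.5-fold in the 6 blocks (median 30.9) and 5.91 to 152-fold in the others (median 30.8). MTF2 averaged 5.79 to 7.19-fold in the 6 (median 6.31) and 0.638 to 21.8-fold in the others (median 5.20). MTF2 was called in 43.8% to 65.5% of the bins of the 6 and in 0% to 93.6% of those of the others. The mean JARID2 and MTF2 folds and the shares of called bins of the 6 lay inside the range of the others, and no difference between them was tested. That range is wide because the others are a mixed set, so lying inside it says little about likeness. An 88 kb block on chromosome 8 had 152-fold JARID2 with a coefficient of variation of 0.138. A 78 kb block on chromosome 11 had 21.8-fold MTF2, and the 148 kb block, on chromosome 6, had 1.08-fold MTF2.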

How the data were processed

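Occupancy was measured by ChIP-seq in mouse ES cells, with 1 library for MTF2 and 1 for JARID2. Per the labels' protocols, sonicated chromatin was immunoprecipitated, and the adapter-ligated DNA went through 15 cycles of PCR before sequencing on a Genome Analyzer. Each line of the deposited files was the position of 1 read, 10986401 for MTF2 and 14465269 for JARID2. The deposited score per read was 0 to 10 in MTF2, with 39.3% of the reads at 0, and 1000 throughout in JARID2. The meaning of the score is not given in the sources used here. Aligner, genome build and filters are likewise not given there.

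Of reads sharing chromosome, strand and 5′ position, 1 was kept (81.4% of MTF2 and 89.2% of JARID2 reads). Kept positions were moved 70 bp (MTF2) or 100 bp (JARID2) downstream and counted in 1 kb bins. For each chromosome the expected count was the mean over bins, among those with a read in either library, up to their 99th percentile. A bin was called at 5-fold or more, and called bins with at most 1 uncalled bin between them were joined. The windows, the thresholds and the lists were chosen with earlier results of these data known. No test was possible with 1 library per factor, and values are differences between libraries. Named bins were the 5 highest of each library in a window, block edges, and bins high in 1 library alone. Outside this rule, blocks and the comparison at JARID2 summits were chosen after their values were seen. Counting code was tested on simulated reads. Python 3.11.15, numpy 2.4.6, pandas 2.3.3, scipy 1.17.1 and matplotlib 3.10.9 were used.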

Additional observations from a re-analysis of the deposited data

How the results depend on the processing

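Over 25 results, 171 values were computed under other settings. Of these, 133 stayed within 1.5 times (counts, widths, distances) or within the counting interval (ratios), and 38 moved. A reversal of direction was not scored. The comparison at JARID2 summits and its settings were chosen after the data were seen. The ratios of JARID2 to MTF2 fold moved in each window, in the order Hoxa, Hoxb, Hoxc and Hoxd, to 6.77, 4.64, 4.34 and 5.81 with repeat reads kept, to 4.605, 3.33, 3.14 and 3.998 with the mean over all bins as background, to 6.30, 4.98, 4.74 and 6.07 with their median, and to 4.99, 3.66, 3.36 and 4.44 with MTF2 reads of score above 0. At 10-fold the MTF2 bins were 21, 11, 13 and 18 and the bins in both 21, 9, 11 and 17, as a stricter rule leaves fewer. At 3-fold there were 94 MTF2 bins in Hoxa, 102 in Hoxb and 100 in Hoxc, and 97 (Hoxb) and 92 (Hoxc) in both. With MTF2 reads of score above 0 the MTF2 bins at 5-fold rose, within 1.5 times. They went from 62 to 65 in Hoxa, 56 to 69 in Hoxb, 63 to 73 in Hoxc and 56 to 63 in Hoxd. The longest JARID2 block was 41 kb in Hoxa, 31 in Hoxb, 41 in Hoxc and 35 in Hoxd when only adjacent bins were joined, and 55, 29, 13 and 34 kb at 10-fold, so that Hoxc no longer held the longest alone. The Hoxb distance between the highest steps was 13900 bp with 100 bp steps. MTF2 at JARID2 summits relative to 400 to 1000 bp away was 0.764 (0.693 to 0.840) with MTF2 reads not shifted and 0.795 (0.709 to 0.891) with score above 0. The cause was not tested, other than that stricter thresholds and joins keep fewer bins by construction. No paired analysis was possible because each factor has 1 library. With 3.18 to 3.50 MTF2 reads expected per bin, MTF2 calls near 5-fold are uncertain, and 115 of 237 had an interval wholly above it.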
